A study of Mus musculus with 10 samples.

Results

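The small leucine-rich proteoglycan genes Dcn, Lum, Bgn, Fmod, Ogn, Prelp, Aspn and Podn and the large proteoglycan gene Vcan were followed in sorted tumour cells of mouse malignant peripheral nerve sheath tumours (MPNST), sarcomas of the Schwann cell lineage. The 9 genes were taken as a list of family members by name, 9 of 46517 genes in each count table, with no threshold on their values. All 9 had enough reads to be tested among 13986 genes. RNA came from 10 libraries of 5 allograft models, A to E, and each model gave a GFP+ library and a GFP- library. GFP+ cells carry expression of a transgene that the labels call CGD without expanding the name, GFP- cells do not, and the labels give no treatment, age, host strain or tumour genotype for either population. Dead cells and wild-type cells were gated out before the sort, so that each pair is meant to compare tumour cells with tumour cells. The purity of the sorted cells was not tested. The sources used here do not say whether a model stands for 1 animal or several, and p-values measure the spread over these 5 pairs.

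Small leucine-rich proteoglycans are secreted core proteins built from leucine-rich repeats, most of them carrying chondroitin, dermatan or keratan sulfate chains. They bind collagen fibrils and set their spacing, and decorin and biglycan also bind growth factors and receptors of the cell surface. Versican is a much larger chondroitin sulfate proteoglycan that ties hyaluronan into the loose matrix around cells. In peripheral nerve and its tumours these proteins are part of the collagen-rich and myxoid stroma, and in a bulk library fewer cells of a type and less RNA per cell cannot be told apart.

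The libraries held 15978673 to 22082207 reads in genes. Markers of blood and endothelial cells were mostly low. Of 9 leukocyte markers 7, among them Ptprc, stayed under 1 CPM everywhere. CPM is the read count of a gene scaled to the reads in genes of its library. The other leukocyte markers were Csf1r, at most 1.70 CPM, and Cd68, at 6.07 to 16.6 CPM. The 3 haemoglobin genes stayed under 1 CPM too, and the summed level of 6 endothelial markers was at most 4.07 CPM. Fibroblast markers other than the genes described here (9 of 9 detected, among them Pdgfra and Col1a1) summed to 9183 to 33427 CPM in GFP+ and 10973 to 39454 CPM in GFP- libraries, with the lowest sums in both libraries of model C. Schwann lineage markers (9 of 9 detected, Sox10 among those at 0 in some GFP- libraries) summed to 63.4 to 395 CPM in GFP+ and 20.7 to 127 CPM in GFP- libraries, higher in the GFP+ library of every pair. Gap43 alone held at least 56.1 CPM in each GFP+ library, so it made up most of the smallest GFP+ sum. Sox10 and Ngfr each fell as low as 0.111 CPM among the GFP+ libraries. The 6 markers of pericytes and smooth muscle summed to 14.1 to 200.5 CPM and 6.996 to 215 CPM, highest in both libraries of model D, and 5 perineurial markers, with Krt19 and Lypd2 under 1 CPM, to 115 to 310 CPM and 121 to 446 CPM. The 7 cartilage and bone markers, of which Sp7, Bglap and Ibsp stayed under 1 CPM, summed to 183 to 280 CPM and 180 to 240 CPM. Pair D stands apart in 1 respect: Xist, the RNA of the inactive X chromosome, reached 103 CPM in the GFP+ library and 2.82 CPM in the GFP- one, whereas the populations of the other pairs lay within 0.0514 to 0.111 CPM (A), 523 to 1049 CPM (B), 615 to 724 CPM (C) and 564.5 to 567 CPM (E). The part of these cell type and library values in the results was not tested.

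Most of the family sits in short gene clusters. Dcn (ENSMUSG00000019929, mm10 chromosome 10, 97479609 to 97518143) and Lum (97565128 to 97572703) lie 46985 bases apart with the keratocan gene Kera beyond Lum. Aspn (chromosome 13, 49544443 to 49567565) and Ogn (49608046 to 49624501) lie 40481 bases apart with the osteomodulin gene Omd between them and Ecm2 on the far side of Aspn. Prelp (chromosome 1, 133910304 to 133921414) and Fmod (134037254 to 134048277) lie 115840 bases apart. Bgn (chromosome X, 73483602 to 73495933), Podn (chromosome 4, 108014791 to 108096445) and Vcan (chromosome 13, 89655312 to 89742509) are alone. Windows upstream of the start were found in RefSeq's GRCm38.p6 table for 7 of the 9 genes. Dcn and Lum had no entry. The last 150 bases before the RefSeq start are shown for the cluster neighbours Aspn and Ogn, whose levels varied together, for Bgn, the most abundant of the genes shown, and for Vcan, whose level varied least between models. They read 5′ to 3′ in the direction of the gene, and capitals mark a motif found by search: Aspn at chr13:49544293-49544442 and Ogn at chr13:49607865-49608014, both on the plus strand, Bgn at chrX:73483451-73483600, plus strand, and Vcan at chr13:89742513-89742662, minus strand.

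Aspn: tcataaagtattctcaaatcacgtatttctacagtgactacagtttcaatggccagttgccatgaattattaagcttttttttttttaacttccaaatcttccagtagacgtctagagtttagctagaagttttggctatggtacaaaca
Ogn: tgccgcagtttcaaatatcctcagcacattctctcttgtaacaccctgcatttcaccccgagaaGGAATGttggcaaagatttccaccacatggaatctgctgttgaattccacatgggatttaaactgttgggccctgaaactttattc
Bgn: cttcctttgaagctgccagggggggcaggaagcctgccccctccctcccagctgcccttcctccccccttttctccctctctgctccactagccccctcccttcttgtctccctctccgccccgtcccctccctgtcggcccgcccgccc
Vcan: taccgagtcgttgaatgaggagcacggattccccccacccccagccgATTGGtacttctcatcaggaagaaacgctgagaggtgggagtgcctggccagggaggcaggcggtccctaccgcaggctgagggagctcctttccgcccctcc

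A search on both strands covered 6 motifs: the TATA box (TATAAA), the CCAAT box (CCAAT), an AP-1 site (TGANTCA), a TEAD site (GGAATG), a SOX site (ACAAAG) and an E-box (CACGTG). Ogn held a TEAD match that begins 86 bases before the start, a motif present in 7.59% of 32851 windows of this length. Vcan held a CCAAT box on the reverse strand, a motif in 24.5% of windows, and the window of Prelp, not printed, held it as well. Aspn, Bgn, Fmod and Podn held none of the 6. The windows differed in CpG content: Prelp had 0 CG dinucleotides, Aspn and Ogn 2, Bgn 5 and Vcan 8, against a median of 4, and the upstream start of Podn had 17. A match is a description of the letters, not evidence of binding.

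Set per length, as CPM per kilobase of annotated exon, decorin and biglycan mRNA led the family. Over the 10 libraries Dcn averaged 520 ± 622 on this scale, Bgn 353 ± 298, Vcan 67.8 ± 24.1, Aspn 61.7 ± 62.4, Ogn 29.7 ± 33.0, Podn 15.9 ± 14.9, Prelp 13.2 ± 18.0, Lum 7.42 ± 7.67 and Fmod 0.637 ± 1.01 (SD, n = 10 libraries of 5 models). Few neighbours in this order were separated beyond their spread. Dcn stood above Bgn in 4 of 10 libraries, Vcan above Aspn in 7, Ogn above Podn in 7, Podn above Prelp in 5 and Prelp above Lum in 6. Bgn stood above Vcan in 8, Aspn above Ogn in 9 and Lum above Fmod in 8. Together the 9 genes took 0.339% to 1.15% of all reads in genes, least in the GFP+ library of model E and most in that of model C.

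**Figure D1:**
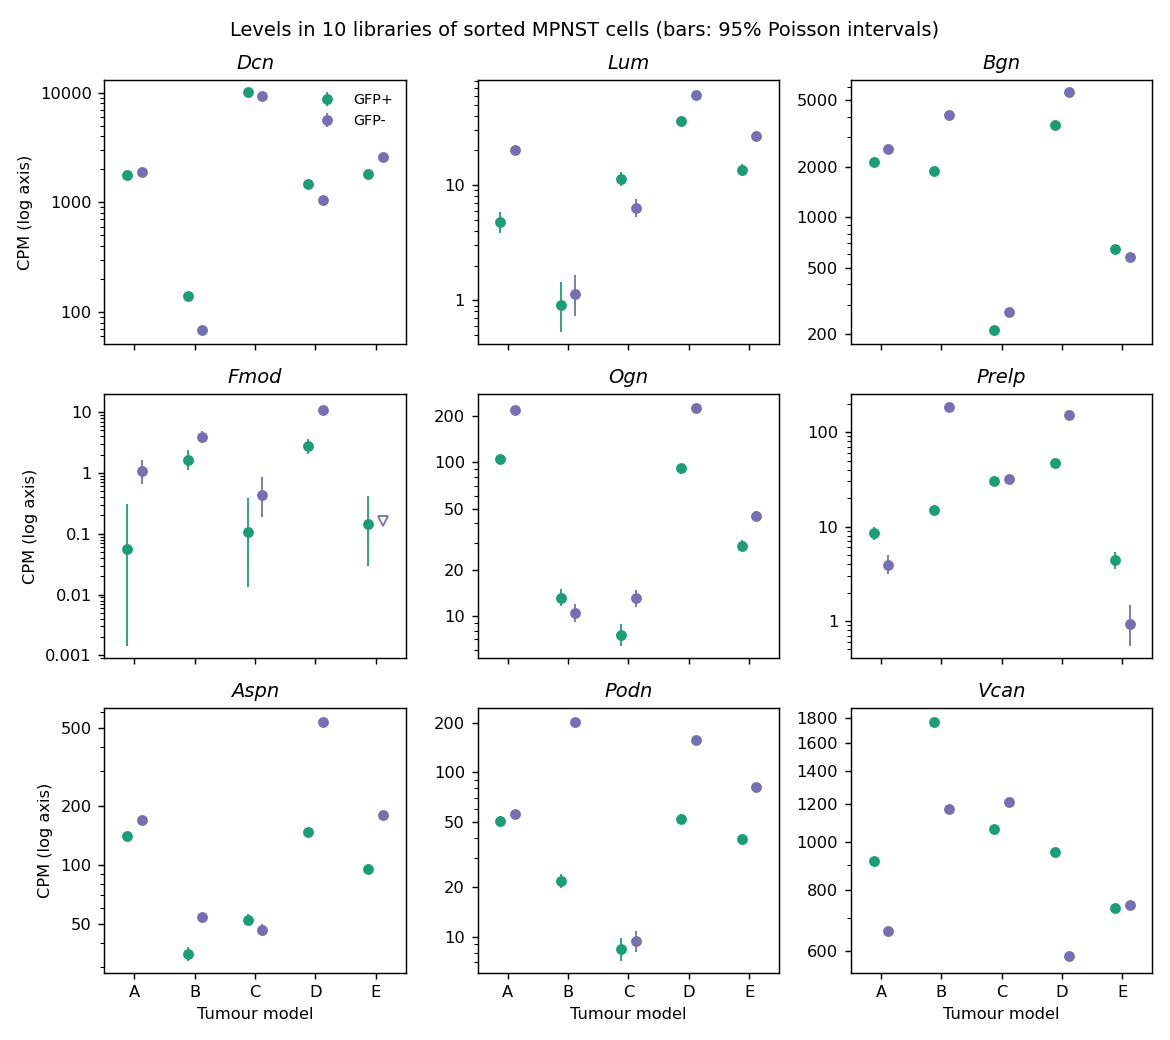
Level of each of the 9 genes in CPM, on log axes of different range, by tumour model, with GFP+ libraries in green and GFP- libraries in violet. Bars are 95% Poisson intervals for counting error and an open triangle marks the level that 0 reads allow. The populations of a model usually lie close together while models lie far apart, as for Dcn, from 68.6 CPM in model B to 10149 CPM in model C.

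The 5 tumour models differed in every one of these genes. In edgeR's quasi-likelihood F test of the model term, with the population as the other term, 9 of 9 genes passed at a Benjamini-Hochberg adjusted p under 0.05, where 54.7% of all tested genes did. Adjusted p was 0.000471 for Dcn, 0.000671 for Ogn, 0.000850 for Bgn, 0.00397 for Lum, 0.00513 for Fmod, 0.00612 for Aspn, 0.0285 for Vcan, 0.0428 for Podn and 0.0430 for Prelp. Both libraries come from the same model, so this test sets the models against the spread of pair differences and compares these 5 models only. With a model left out, 6 to 8 genes passed. Without model A Prelp did not pass (53.5% of all tested genes did). Without B Vcan did not and Fmod was not tested (48.2%). Prelp and Podn did not pass without C (28.6%), without E (38.2%) or without D (50.6%), where Fmod was not tested either.

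The decorin gene Dcn, whose product wraps collagen fibrils and binds several growth factor receptors, differed most between models of the genes with many reads. It stood at 1790, 140, 10149, 1462 and 1833 CPM in GFP+ cells of models A to E. In GFP- cells it stood at 1910, 68.6, 9345, 1046 and 2622 CPM. In model C it was the gene with the second highest count of all, in both populations, and in model B it ranked 1539 and 3354. Both libraries of C lay above, and both of B below, all the others, and the mean CPM of the models differed 93.5-fold. Fmod, on few reads, had a ratio of 94.1.

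The biglycan gene Bgn, decorin's closest relative, ran the other way. It stood at 2127, 1887, 212, 3569 and 646 CPM in GFP+ and at 2565, 4099, 273, 5573 and 579.5 CPM in GFP- cells of models A to E. Model C, the highest for Dcn, was the lowest for Bgn, with both libraries below the other 8. The ratio of Dcn to Bgn per length was 49.9 and 35.7 in GFP+ and GFP- cells of model C, 2.96 and 4.73 in E, 0.879 and 0.778 in A, 0.428 and 0.196 in D and 0.0775 and 0.0175 in B. Over the 10 libraries Dcn and Bgn correlated at Pearson r = -0.70 and Spearman rho = -0.81 across log2 CPM. This is a description, since the libraries share models in pairs. The summed fibroblast markers were lowest in model C, where Dcn was highest. That sum comes largely from Col1a1, Col1a2 and Col3a1, with means of 2117, 587 and 5862 CPM in model C. The part of cell makeup in the level of Dcn was not tested.

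Asporin, the third member of this class and a collagen-binding protein of connective tissue, was less uneven. Aspn stood at 141, 35.2, 52.5, 147 and 94.97 CPM in GFP+ cells of models A to E. In GFP- cells it stood at 170, 54.1, 46.7, 533.7 and 179 CPM. Its GFP- library of model D was far above the other 9, and models B and C were the lowest.

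**Figure D2:**
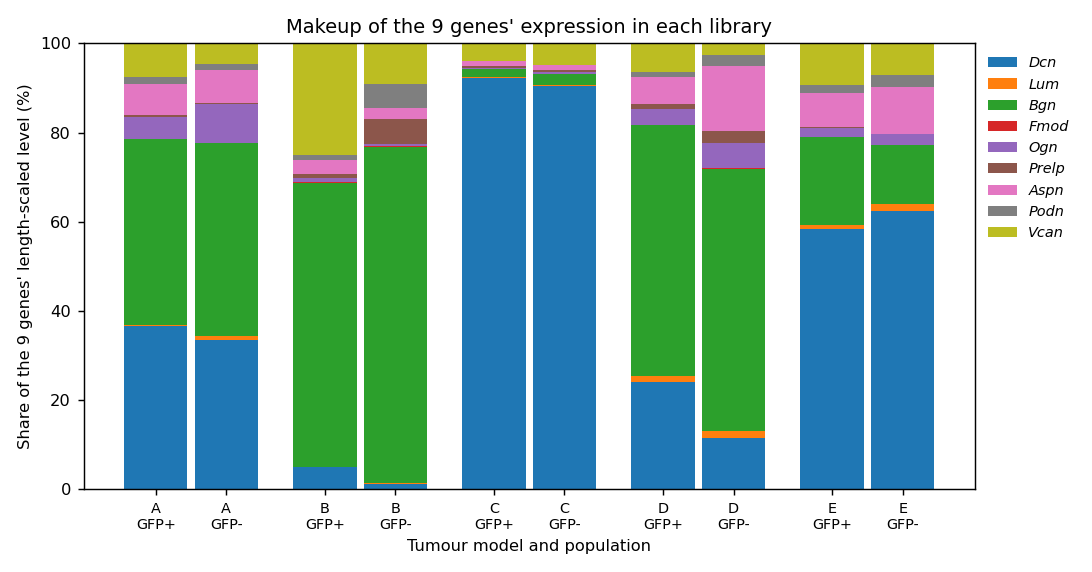
Share of each gene in the length-scaled level of the 9 genes, in percent, for each library, ordered by model and population. Dcn makes up 92.1% and 90.5% of the level in model C and 4.94% and 1.32% in model B, where Bgn makes up 63.7% and 75.4%.

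Among the keratan sulfate class, which spaces collagen fibrils in cornea and tendon, mean levels per length were lower than those of Dcn and Bgn. Lum, the lumican gene, stood at 4.78, 0.905, 11.2, 36.03 and 13.5 CPM in GFP+ and at 20.1, 1.13, 6.38, 60.5 and 26.9 CPM in GFP- cells of models A to E. Model D was above and model B below all other libraries in both populations. Prelp, whose product anchors basement membrane to connective tissue, stood at 8.50, 15.1, 30.2, 47.5 and 4.39 CPM in GFP+ and at 3.96, 183, 31.8, 151 and 0.922 CPM in GFP- cells. Its libraries of models A and E were the 4 lowest. Fmod, the fibromodulin gene, rested on few reads: 1, 31, 2, 51 and 3 in GFP+ and 21, 87, 8, 173 and 0 in GFP- cells of models A to E. The 0 reads of the last library allow up to 0.163 CPM, counting error only. The 4 libraries of models B and D were above the other 6.

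Of the remaining 2 small proteoglycans, Ogn encodes osteoglycin (mimecan) and Podn encodes podocan, a protein known from the vessel wall. Ogn stood at 105, 13.1, 7.495, 92.0 and 28.7 CPM in GFP+ and at 220, 10.46, 12.99, 226 and 45.0 CPM in GFP- cells of models A to E. Models A and D were high in both populations and models B and C low. Podn stood at 50.9, 21.9, 8.42, 52.3 and 39.5 CPM in GFP+ cells. In GFP- cells it stood at 55.7, 202, 9.36, 157 and 81.1 CPM, so that both libraries of model C lay below all others while the top differed by population.

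Versican mRNA varied least between models. Vcan stood at 917, 1762, 1064, 958 and 733 CPM in GFP+ and at 658, 1171, 1213, 584.5 and 746 CPM in GFP- cells of models A to E. Its model means differed 1.98-fold from the highest (B) to the lowest (E), against 7.63-fold for Aspn, the next smallest. The range of the model means (TMM-scaled log2 CPM, prior count 2) was 0.94 on the log2 scale for Vcan and 0.94 for the median tested gene, and 2.68 (Aspn) to 6.65 (Dcn) for the small proteoglycans. Both libraries of a model lay above the other 8 for 2 of 9 genes (Dcn and Lum), against 44.6% of all tested genes. Both lay below the other 8 for 4 of 9 (Dcn, Lum, Bgn and Podn), against 41.4%.

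**Figure D3:**
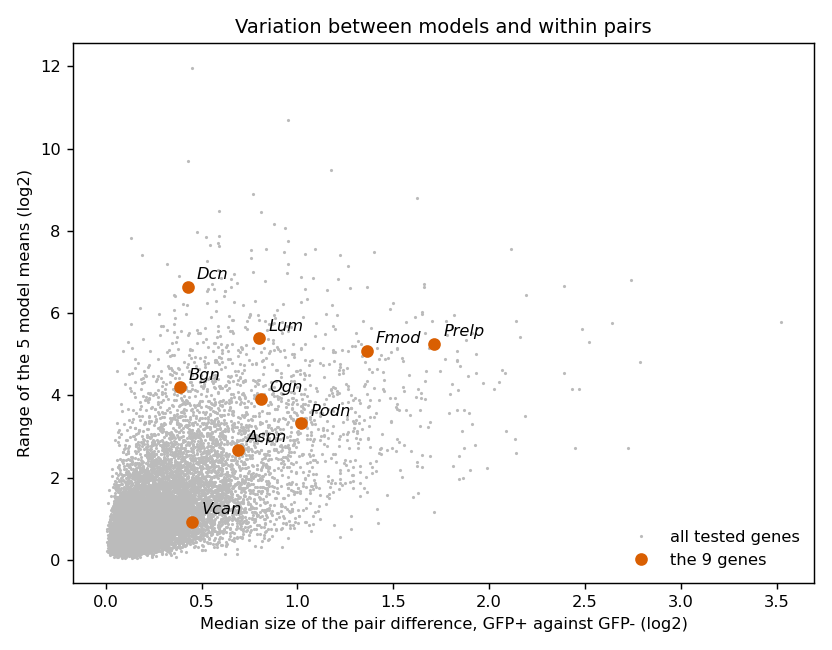
For every tested gene, the range of the 5 model means (log2, vertical) against the median size of the difference between the populations of a pair (log2, horizontal), with the 9 genes in orange. Dcn has a range of 6.65 at a median pair difference of 0.43, Prelp combines 5.26 with 1.71, and Vcan lies at 0.94 and 0.45, where the medians over all genes are 0.94 and 0.22.

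The comparison of GFP+ with GFP- cells of the same model asks which genes accompany transgene expression. None of the 9 genes passed it. In the quasi-likelihood test of edgeR, blocked by pair, 0 of 9 had an adjusted p under 0.05, as did 0 of all 13986 tested genes (0%). At an unadjusted p under 0.05 there were 5 of 9 genes (8.99% of all tested genes), each with a lower estimate in GFP+ cells (3.49% of all tested genes combine both): Ogn, Fmod, Podn, Aspn and Bgn. The median log2 difference, GFP+ minus GFP-, over the 9 genes was -0.73, against -0.0028 over all tested genes. The estimate was negative for 7 of 9 (50.7% of all genes), and 6 of 9 were lower in at least 4 of 5 pairs (20.7% of all genes). DESeq2 with the same block called 1 of the 9, Ogn (1.39% of all genes). The edgeR likelihood-ratio test called a different gene, Fmod (1.47% of all genes). By that likelihood-ratio test Ogn had an adjusted p of 0.0534, and by DESeq2 Fmod had an adjusted p of 0.177.

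Ogn had the smallest p of the 9. It averaged 49.3 ± 46.0 CPM in GFP+ cells and 103 ± 111 in GFP- cells (± SD, 5 libraries each). The log2 difference was -0.76 (SE 0.21, adjusted p = 0.393 by edgeR's quasi-likelihood test, 0.0395 by DESeq2). Folds within a pair are given from TMM-scaled log2 CPM with a prior count of 2, so they differ slightly from ratios of the CPM above. Ogn was lower in the GFP+ library of 4 pairs and 1.19-fold higher in that of pair B. Within pairs A and D, where the gene was abundant, GFP- cells held 2.13 and 2.55 times the GFP+ level.

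Podn was lower in the GFP+ library of 5 of 5 pairs, as were 4.66% of all tested genes. Its means were 34.6 ± 19.0 and 101 ± 77.7 CPM (± SD, 5 libraries each), a log2 difference of -1.25 (SE 0.44, adjusted p = 0.478 by edgeR). The pairs were unequal: the log2 difference was -3.27 in B, -1.63 in D, -1.02 in E, -0.17 in C and -0.16 in A. Without pair B the estimate was -0.78.

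Fmod had the largest estimate, -1.75 (SE 0.55, adjusted p = 0.443 by edgeR's quasi-likelihood test, 0.0140 by its likelihood-ratio test), on means of 0.951 ± 1.23 and 3.26 ± 4.501 CPM (± SD, 5 libraries each). It was lower in the GFP+ library of pairs A to D. Pair E, with 3 reads against 0, gave no fold.

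Aspn and Bgn, the other genes with an unadjusted p under 0.05, had smaller estimates. Aspn differed by -0.73 (SE 0.27, adjusted p = 0.480 by edgeR), on means of 94.1 ± 50.4 and 197 ± 198 CPM (± SD, 5 libraries each). It was 3.76-fold lower in GFP+ cells of pair D and 1.11-fold higher in pair C, and without pair D the estimate was -0.44. Bgn differed by -0.48 (SE 0.20, adjusted p = 0.536 by edgeR), on means of 1688 ± 1326 and 2618 ± 2268 CPM (± SD, 5 libraries each). It was lower in the GFP+ library of 4 pairs, most in pair B (2.28-fold), and 1.13-fold higher in pair E. Without pair B the estimate was -0.30. Bgn lies on the X chromosome, and in pair D, where Xist differed, its difference was -0.70, the second largest of the pairs; the part of Xist status was not tested.

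Dcn, Vcan, Lum and Prelp had p above 0.05. Dcn averaged 3075 ± 4014 and 2998 ± 3674 CPM (± SD, 5 libraries each), a log2 difference of 0.17 (SE 0.22), higher in GFP+ cells of pairs B, C and D and lower in A and E. Without pair B it was -0.02 and without pair E 0.32. Vcan had a positive estimate, 0.28 (SE 0.15), on 1087 ± 396 and 874 ± 296 CPM (± SD, 5 libraries each). It was 1.58-fold higher in GFP+ cells of pair D, 1.44-fold in B and 1.37-fold in A, and at or under the GFP- level in C and E (0.863-fold and 0.993-fold). Lum differed by -0.74 (SE 0.37), with 4.21 times more in GFP- cells of pair A and 1.72 times more in GFP+ cells of pair C; without pair A the estimate was -0.39 and without pair C -1.14. Prelp went both ways: GFP- cells held 12.6 times the GFP+ level in pair B and 3.28 times in pair D, whereas GFP+ cells held 4.42 times the GFP- level in pair E and 2.08 times in pair A. Its estimate was -0.68 (SE 0.78), and 0.07 without pair B, -0.24 without pair D, -1.17 without pair A and -1.18 without pair E.

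**Figure D4:**
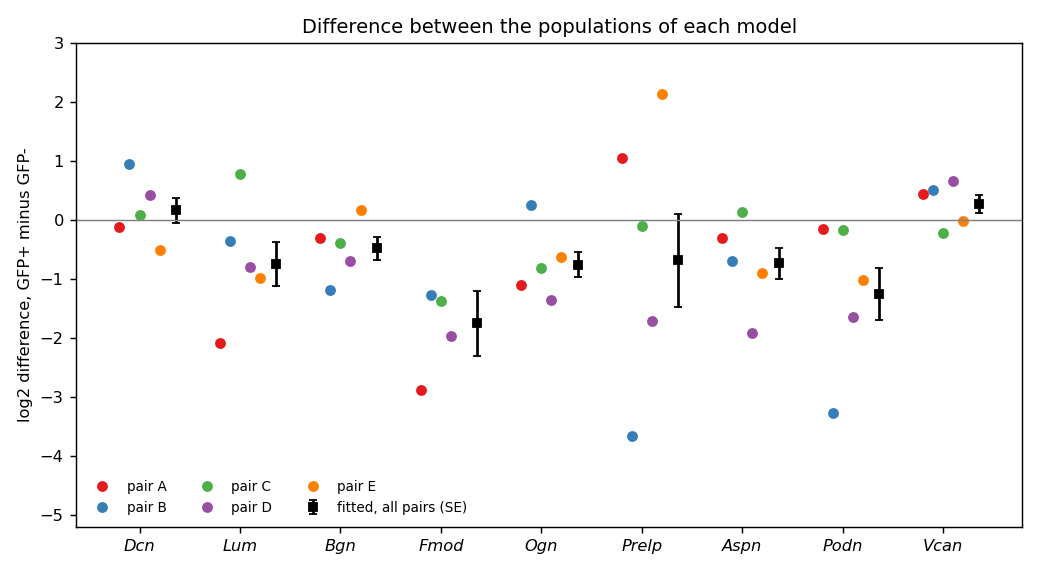
Log2 difference, GFP+ minus GFP-, of each gene in each of the 5 pairs (coloured points) and as fitted over all pairs (black squares, bars are the standard error). Podn lies under 0 in 5 of 5 pairs, Prelp runs from -3.65 in pair B to 2.14 in pair E, and Fmod has no point for pair E, with 3 reads against 0.

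The pairs also differed in how many of the 9 genes separated the populations. Among genes with more than 3 reads in a library of the pair, 5 genes were more than 2-fold lower in GFP+ cells of pair D (4.42% of all such genes), 4 in pair B (5.30%), 3 in pair A (1.90%), 1 in pair C (1.38%) and 1 in pair E (0.805%). Fmod is among them in pairs A to D, on 1 read against 21, 31 against 87, 2 against 8 and 51 against 173 (GFP+ library first). It is the 1 gene counted in pair C. More than 2-fold higher was Prelp in pair E (5.52% of all such genes) and in pair A (4.66%), and 0 genes were in pairs B (5.78%), C (2.49%) and D (3.51%). The summed Schwann markers (GFP+ library first) were 395 and 79.0 CPM in D, 116 and 20.7 in B, 225 and 127 in C, 63.4 and 39.4 in A, and 122 and 89.3 in E. Their part in these counts was not tested. Whether the populations differ by model in these genes was not tested, as each model has 1 pair.

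Genes of a cluster kept similar profiles over the libraries, with exceptions. Aspn and Ogn correlated at r = 0.89 over the 10 libraries, and Omd, which lies between them, at 0.89 with Aspn and 0.84 with Ogn. Ecm2 correlated at 0.93 with Ogn and 0.79 with Aspn. Kera followed Dcn at r = 0.97, with 131 CPM as its mean in model C and 0.531 CPM in model B. Lum, which lies between them, correlated at only 0.58 with both. By rank Lum was further from them, with a Spearman rho of 0.21 with Dcn and 0.19 with Kera. Fmod and Prelp correlated at 0.76. Vcan, on the same chromosome as the Aspn cluster but 40087747 bases from Aspn, ran against it, at -0.90 with Aspn and -0.79 with Ogn, and also against Lum (-0.84). Between members on different chromosomes, Bgn and Podn reached 0.79, Lum and Aspn 0.80 and Bgn and Fmod 0.75. The libraries share models in pairs, so these values describe the 5 models and carry no test.

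**Figure D5:**
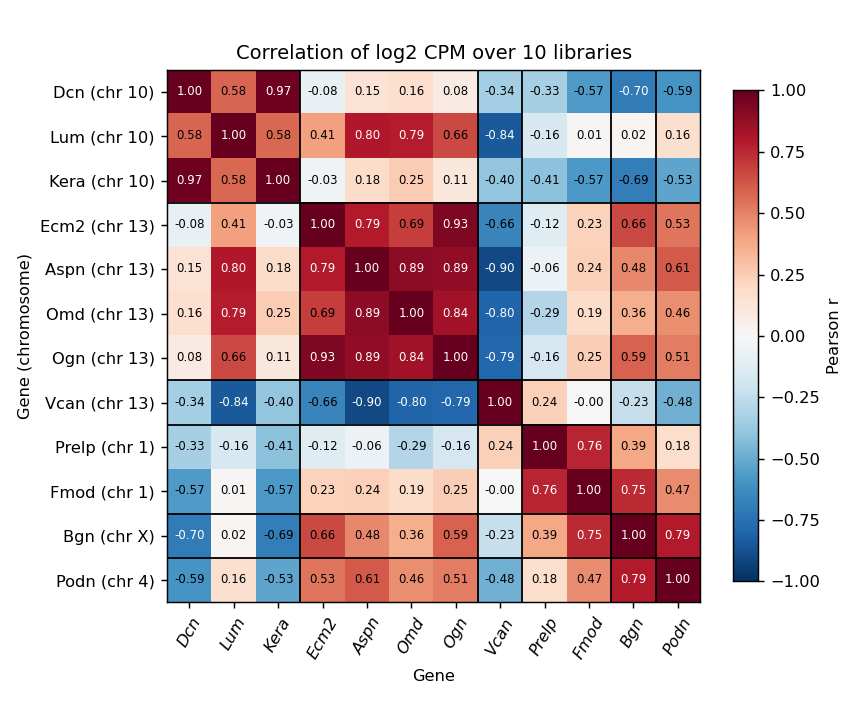
Pearson correlation of log2 CPM over the 10 libraries between the 9 genes and the cluster neighbours Kera, Ecm2 and Omd. Genes are grouped by chromosome, with lines between clusters. The chromosome 13 cluster is a block of 0.69 to 0.93, Dcn and Kera reach 0.97, and Vcan is negative with the whole chromosome 13 block.

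A search over expressed genes gave the closest profile to each member. The best of 10918 genes can reach a high r through the size of the search alone, as the 10 libraries share models in pairs. The relatives of a member are few, so these matches cannot show whether outside genes follow it more closely than relatives do. They are a description and carry no test. Among 10918 genes with a mean of at least 5 CPM, the best matches by Pearson r over the 10 libraries were Mfap2 for Bgn (0.99), which encodes an elastic microfibril protein, Slc7a6 for Dcn (0.99), Rasl11a for Fmod (0.98), Mrpl10 for Ogn (0.98), Bicc1 for Podn (0.98), Loxl1 for Prelp (0.97), which encodes a lysyl oxidase of elastic fibres, Rin1 for Vcan (0.97), Zfp1 for Lum (0.96) and Tvp23b for Aspn (0.94). The second match of Podn was Ccdc80 (0.97), which encodes a secreted matrix protein.

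The other genes of the proteoglycan pathway likewise gave calls between models and, with edgeR's quasi-likelihood test, none between populations. Over all tested genes 54.7% passed the model test and 8.99% had an unadjusted p under 0.05 between populations, and the counts below stand against these shares. In the 7 lists of this and the next paragraphs DESeq2 and the likelihood-ratio test each called Has2, Chst3, Ust, Adamts5 and Adamts15. Over all tested genes these tools called 1.39% and 1.47%. The limma voom fit called 0 in the lists and 0 over all tested genes. Of 10 further small leucine-rich genes, 7 were tested, 0 passed the population test (2 at an unadjusted p under 0.05) and 5 passed the model test. Among them Chadl had a positive difference (1.21, SE 0.44) and Omd a negative one (-0.73, SE 0.31). Of the 4 tested hyaluronan-binding relatives of versican and their link proteins, 0 passed between populations (0 at an unadjusted p under 0.05) and 4 between models. Acan, the aggrecan gene, was 101 CPM as a mean in model C and 3.21 CPM in model B.

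The enzymes that build chondroitin and dermatan sulfate chains were all expressed: 26 of 26 were tested, 0 passed the population test (3 at an unadjusted p under 0.05) and 20 passed the model test (76.9%). Their median population difference was 0.0068. The smallest p belonged to the sulfotransferase genes Chst3 (1.18, SE 0.24) and Ust (0.48, SE 0.10), both higher in the GFP+ library of 5 of 5 pairs (5.11% of all tested genes) and called by DESeq2 and the likelihood-ratio test, and to the dermatan sulfate epimerase gene Dse (-0.24, SE 0.08), lower in 5 of 5. Chst11, a chondroitin sulfotransferase gene, had the highest CPM of the list (not scaled by length), with a mean of 586 CPM in model C and 112 to 196 CPM in the others. Of 5 tested keratan sulfate genes 0 passed between populations (0 at an unadjusted p under 0.05) and 3 between models.

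Among 11 genes for proteases that cut versican or process small proteoglycans, 0 passed the population test (2 at an unadjusted p under 0.05), 9 had a negative estimate and the median was -0.35. The model test called 7 of the 11 (63.6%). The aggrecanase genes Adamts5 (32.9 ± 14.5 against 48.5 ± 16.7 CPM, ± SD, 5 libraries each; log2 -0.63, SE 0.12, adjusted p = 0.307 by edgeR) and Adamts15 (-1.10, SE 0.25, adjusted p = 0.359) were lower in the GFP+ library of 5 of 5 pairs, and both were called by DESeq2 and the likelihood-ratio test. Of the hyaluronan genes, 11 were tested and 0 passed between populations (5 at an unadjusted p under 0.05). Between models 6 passed (54.5%), near the 54.7% of all tested genes. Has2, which encodes a hyaluronan synthase (66.4 ± 56.1 against 46.6 ± 35.3 CPM, ± SD, 5 libraries each; 0.42, SE 0.09, adjusted p = 0.329 by edgeR), and Cd44, the hyaluronan receptor gene (0.25, SE 0.10), were higher in 5 of 5 pairs, Has2 also being called by DESeq2 and the likelihood-ratio test, and Cemip, a hyaluronan-degrading factor, was lower in 4 of 5 (-0.61, SE 0.25). Of 18 tested receptors and partners of decorin, biglycan and versican, 0 passed between populations (3 at an unadjusted p under 0.05) and 18 between models. Tnc, the tenascin-C gene (0.36, SE 0.11), and Met, the HGF receptor gene (0.33, SE 0.14), were higher in 5 of 5 pairs, and Tgfb2 was lower in 4 of 5 (-0.55, SE 0.15).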

How the data were processed

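The authors deposited raw read counts per gene, 1 table per library, not normalized. Per the submitters' processing notes the tools were STAR 2.4.2.8 and the build mm10. The sources used here do not give the gene annotation or the library kit. Counts of column 4 (second strand setting) were used, since that column held 96.9% to 97.1% of the stranded gene reads. The 4 summary lines (21.3% to 24.3% of reads) were left out. Levels are CPM over the reads in genes. Symbols, positions and exon lengths came from GENCODE vM21 (46005 of 46517 identifiers matched).

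Tests used edgeR 4.0.16 in R 4.3.3: TMM scaling, filterByExpr, the model as a block, quasi-likelihood tests of the population and of the 4 model coefficients, Benjamini-Hochberg adjusted over all 13986 genes at 0.05. Pair differences are log2 CPM with a prior count of 2. Letters pair the samples because both populations come from the same model, and their deviations from population means correlated (0.628 to 0.867). Intervals are exact Poisson, 95%, and a count of 0 was taken to allow 3 reads. The test was checked on simulated data. The genes, lists and naming rule (4 smallest p and 3 highest levels per list, 3 closest profiles per gene) were chosen with earlier results of these data known. Ecm2 was named as a cluster neighbour, outside that rule, after its values were seen. Alternatives included DESeq2 1.42.0 and limma 3.58.1.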

Additional observations from a re-analysis of the deposited data

Results flagged for a closer look

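In 3 of 27 groups of 5 values checked (each gene's level in GFP+ cells, its level in GFP- cells and its pair differences), the extreme value lay further from the rest than Dixon's criterion of 0.71 allows. Chance alone marks about 1 group in 20 where values are independent and normally distributed. Raw CPM need not be so, and both Dcn groups flag the same model, so the count cannot be set against that rate. Dcn at 10149 CPM in GFP+ cells of model C and at 9345 CPM in GFP- cells of model C were far above the other models of their population. Aspn at 533.7 CPM in GFP- cells of model D was far above the other GFP- libraries.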

How the results depend on the processing

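Without the replicate block 0 of 9 genes and 0 of 13986 were called, 190 genes had an unadjusted p under 0.05, and the log2 difference was -1.58 for Podn, -1.85 for Prelp, -1.10 for Aspn and 0.013 for Dcn. Without a filter on low counts 47 of 25762 genes were called, and 0 of the 9. DESeq2 called 195 genes and 1 of the 9 (Ogn), and the likelihood-ratio test 206 and 1 (Fmod). Prelp was -0.36 by DESeq2, -0.37 by the likelihood-ratio test and -1.17 by limma voom. With 1 pair left out Dcn ran from -0.024 to 0.32 and Prelp from -1.18 to 0.071, both turning sign without pair B only. Fmod was not tested without B or D. Under the remaining 13 alternatives each tested gene of the 9 had the sign reported. The model test called 4038 (without C) to 7545 (without A) genes with a model left out, and 6 to 8 of the 9. It called 8 of 9 with limma voom, where Prelp did not pass. The causes were not tested, though leaving out a model also removes a level of the tested term. RLE factors, library totals, a stricter filter and unstranded counts changed no call of the 9. Depth limits Fmod, with 0 to 173 reads, and Lum in model B, with 17 and 25.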

Other observations

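Proteoglycan cores of the cell surface and basement membrane included genes with estimates in both directions. Of 15 tested, 0 passed the population test by edgeR (5 at an unadjusted p under 0.05) and 11 passed the model test, against 8.99% and 54.7% of all tested genes. Sdc3, the syndecan gene of neural tissue, had the smallest p, at 80.4 ± 73.2 CPM in GFP+ cells and 45.4 ± 47.4 in GFP- cells (± SD, 5 libraries each). Its log2 difference was 1.02 (SE 0.27, adjusted p = 0.379 by edgeR), higher in 5 of 5 pairs, and it was the 1 gene of this list called by DESeq2 and by the likelihood-ratio test. Sdc1 (-0.35, SE 0.14) was lower in 4 of 5 pairs and Tgfbr3, the betaglycan gene (-0.20, SE 0.08), in 5 of 5. Hspg2, the perlecan gene of basement membranes, had the highest CPM of the list (not scaled by length), at 2216 ± 661.5 and 1738 ± 301 CPM (0.29, SE 0.13).

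A list of matrix collagens held fibrillar collagens, the fibril-associated Col12a1 and Col14a1 and the type VI chains. Between populations 0 of 10 tested genes passed (0 at an unadjusted p under 0.05 and 0 by DESeq2), with a median difference of -0.12. Between models 10 of 10 passed, against 54.7% of all tested genes. Col3a1 averaged 11400 ± 5244 CPM with GFP and 11116 ± 4051 without, and Col1a1 5714 ± 2287 against 6955 ± 4340 (± SD, 5 libraries each). Col1a2 ranged from 556 to 9237 CPM over the 10 libraries.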
